A study of Mus musculus with 121 samples.

Results

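The 9 cytokine and growth factor receptor genes Kit, Flt3, Csf3r, Csf1r, Csf2ra, Csf2rb, Csf2rb2, Il3ra and Il6ra were followed through single cells from the bone marrow of mice with the R412X allele of Gfi1. They were taken by gene symbol from 23946 genes, and all 9 were in the table. They were chosen by name, with earlier results of these data known. The cells fall into 46 labelled CD11b+ GMP-P and 75 labelled GMP, the 2 sorted myeloid progenitor populations of the study. All 121 come from C57BL/6 marrow, which the labels give the genotype Gfi1-R412X/- in one field and HTZ in another. Gfi1 encodes a transcriptional repressor needed for neutrophil formation, and the mutated allele is shared by every cell, so no value here measures its effect. Before sorting, the marrow was enriched for CD117, the protein made from Kit, so all cells passed a selection on the surface product of 1 of the 9 genes.

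Blood cell precursors read their surroundings through these receptors. Kit, the receptor for stem cell factor, and Flt3, the receptor for Flt3 ligand, are tyrosine kinases of early progenitors. Csf3r binds G-CSF, the main growth factor of neutrophils, and Csf1r binds M-CSF and IL-34, the growth factors of monocytes and macrophages. Receptors for GM-CSF and IL-3 pair an alpha chain that binds the ligand (Csf2ra or Il3ra) with a beta chain that signals. Csf2rb is the common beta chain, also used for IL-5, and Csf2rb2 is a second beta chain of the mouse that serves IL-3. Il6ra binds IL-6 and signals through Il6st (gp130).

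The labels give the 46 CD11b+ GMP-P cells 1 run name, which opens with digits that read as a late July date. Of the GMP cells, 13 carry 1 of 2 run names with a late July date (late July GMP: 10 and 3 cells) and 62 share a run name without a date (undated GMP). Population and run name are therefore tied and cannot be told apart. Animals are not named, which makes each population 1 sample, and nothing below carries a test. The authors named 12 states for these same cells (Mono, Gran-1, Myelo-2 and so on, used here as deposited), so values by state describe that annotation. A receptor is called detected in a cell at 1 TPM (transcript abundance scaled to a fixed total per cell) or more, and levels are means of log2(TPM + 1) ± SD over cells. TPM is scaled to transcript length, so levels can be compared between genes. Shares carry exact (Clopper-Pearson) 95% intervals, which cover counting error alone. Between groups, a gene is past the fold when its mean level differs by 1 or more, counted over genes that reach 1 TPM in 10% or more of the cells on one side.

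The median number of detected genes per cell was 2870 for CD11b+ GMP-P, 2570 for late July GMP and 4521 for undated GMP. A median of 3 of the 9 receptors was detected per CD11b+ GMP-P cell, 4 per late July GMP cell and 4 per undated GMP cell. In the sort check, the CD11b gene Itgam reached 1 TPM in 35 of 46 cells of CD11b+ GMP-P, 11 of 13 of late July GMP and 5 of 62 of undated GMP. Late July GMP cells thus carried the transcript that names the other population. Cd34, a progenitor surface gene, was detected in 13, 5 and 61 cells of those groups, and Fcgr3, an Fc receptor gene used to define GMP, in 44, 12 and 59. Gfi1 itself was detected in 32, 10 and 47. Of the monocyte lineage markers, 10 genes that include Csf1r, the summed level had a median of 480 TPM for CD11b+ GMP-P, 472 for late July GMP and 2511 for undated GMP (ranges 0 to 5332, 35 to 1256 and 136 to 10729). Of 15 neutrophil lineage markers, the summed level had a median of 263112 TPM for CD11b+ GMP-P, 458540 for late July GMP and 42970 for undated GMP, where Ltf and Ngp were at 0 (ranges 35084 to 544082, 93985 to 537600 and 385 to 120123). The part of either marker list in the receptor differences between populations was not tested.

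For Kit, Csf3r and Csf2ra, taken as the progenitor, G-CSF and GM-CSF receptors, the bases before the start site are printed from RefSeq's GRCm38.p6 annotation, since the start of a gene is where lineage factors of myeloid cells are known to bind. The 250 bases were searched on both strands for GAGGAA, the core of sites for the myeloid factor PU.1, and for TTNNGNAA, a loose form of C/EBP sites. Capitals mark the matches as they read on the strand of the gene. The windows are chr5:75574737-75574986 (plus strand) for Kit, the more upstream of 2 start sites, chr4:126024409-126024658 (plus strand) for Csf3r and chr19:61228419-61228668 (minus strand) for Csf2ra.
Kit: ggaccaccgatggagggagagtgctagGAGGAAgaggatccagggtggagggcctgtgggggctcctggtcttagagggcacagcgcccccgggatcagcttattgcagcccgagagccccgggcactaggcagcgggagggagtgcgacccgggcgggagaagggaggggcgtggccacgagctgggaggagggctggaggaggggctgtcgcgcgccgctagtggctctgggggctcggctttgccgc
Csf3r: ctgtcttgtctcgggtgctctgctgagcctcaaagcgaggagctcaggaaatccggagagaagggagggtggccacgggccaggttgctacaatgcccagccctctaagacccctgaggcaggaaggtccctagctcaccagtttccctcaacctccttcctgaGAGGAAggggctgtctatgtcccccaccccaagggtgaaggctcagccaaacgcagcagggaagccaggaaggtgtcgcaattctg
Csf2ra: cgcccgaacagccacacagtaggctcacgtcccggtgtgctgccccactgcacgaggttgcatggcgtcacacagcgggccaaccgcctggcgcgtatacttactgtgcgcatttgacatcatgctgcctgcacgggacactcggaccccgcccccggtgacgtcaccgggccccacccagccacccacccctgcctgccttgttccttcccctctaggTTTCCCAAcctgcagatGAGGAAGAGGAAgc
The Kit and Csf3r windows each held 1 PU.1-like match, at -223 and -86 from the start. The Csf2ra window held 2 PU.1-like matches next to each other and 1 C/EBP-like match, with no overlap between the motifs. Of 7 members with an entry, 5 held a PU.1-like and 3 a C/EBP-like match, against 23.3% and 36.8% of 32851 mouse promoter windows of that length. A match is a description of letters, and no binding was measured.

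**Figure D1:**
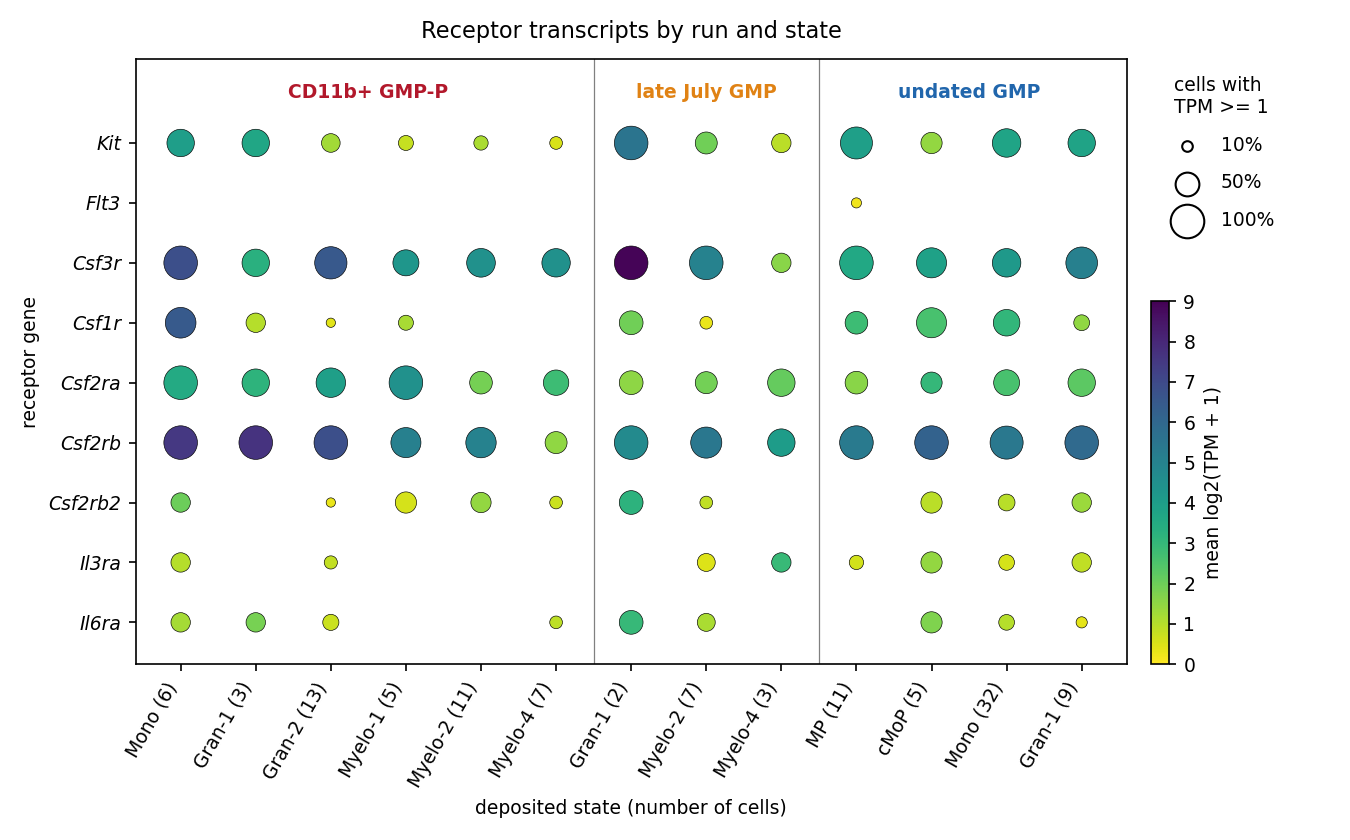
Each dot is a receptor (rows) in the cells of a deposited state within a run (columns, number of cells in brackets). Dot area gives the share of cells at 1 TPM or more and colour the mean log2(TPM + 1). Csf2rb and Csf3r have large dots in nearly every column, Csf1r is darkest in the 6 Mono cells of CD11b+ GMP-P, and Flt3 has 1 dot. States with 1 or 2 cells are left out except Gran-1 of late July GMP.

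Kit, the progenitor receptor, was lower in CD11b+ GMP-P than in GMP, with the widest difference in mean level among the members before the shift of all genes is taken off. It was detected in 14 of 46 cells of CD11b+ GMP-P (30.4%, 17.7 to 45.8%), 7 of 13 of late July GMP (53.8%, 25.1 to 80.8%) and 44 of 62 of undated GMP (71%, 58.1 to 81.8%). The lowest, median and highest Kit levels were 0, 0 and 361 TPM in CD11b+ GMP-P and 0, 11.3 and 611 TPM in GMP. Single cells of the populations overlapped throughout, with more CD11b+ GMP-P cells at 0. Over the cells where Kit was detected, the medians lay closer together, 23.1 TPM in CD11b+ GMP-P and 28.4 TPM in GMP. Mean levels were 1.55 ± 2.57 in CD11b+ GMP-P and 3.46 ± 2.82 in GMP, a difference of -1.91.

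Within the states of undated GMP, Kit was similar in MP, Mono and Gran-1 cells and lower in cMoP cells. It was detected in 10 of 11 MP cells (mean level 3.96 ± 2.14), 23 of 32 Mono cells (3.75 ± 2.73) and 6 of 9 Gran-1 cells (3.79 ± 3.03). These 3 means lie within 1 SD of each other. The 5 cMoP cells held 28.4, 4.09, 0, 0 and 0 TPM, a mean level of 1.45 ± 2.17. The 2 Multi-Lin cells held 611 and 4.30 TPM, the first of which is the highest Kit value among all cells. In undated GMP the summed level of 10 basophil and mast cell markers reached 42359 TPM in 1 cell. In its Mono, MP, Gran-1 and cMoP cells that sum was at most 2934 TPM. Whether the cell with the highest sum was a Multi-Lin cell was not tested. In CD11b+ GMP-P, 4 of 6 Mono cells held Kit at 361, 41.9, 32.8 and 23.9 TPM and the other 2 lay at 0.08 TPM. The 3 Gran-1 cells held 117, 15.1 and 0.13 TPM. Below these came Gran-2 with 4 of 13 cells (1.25 ± 2.28), Myelo-2 with 2 of 11 (1.16 ± 2.66), Myelo-1 with 1 of 5 (0.78 ± 1.74) and Myelo-4 with 1 of 7 (0.53 ± 1.35). From Mono (3.98 ± 3.29) and Gran-1 (3.69 ± 3.36) down to Myelo-4, neighbours in the order differed by less than the larger of their SDs.

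**Figure D2:**
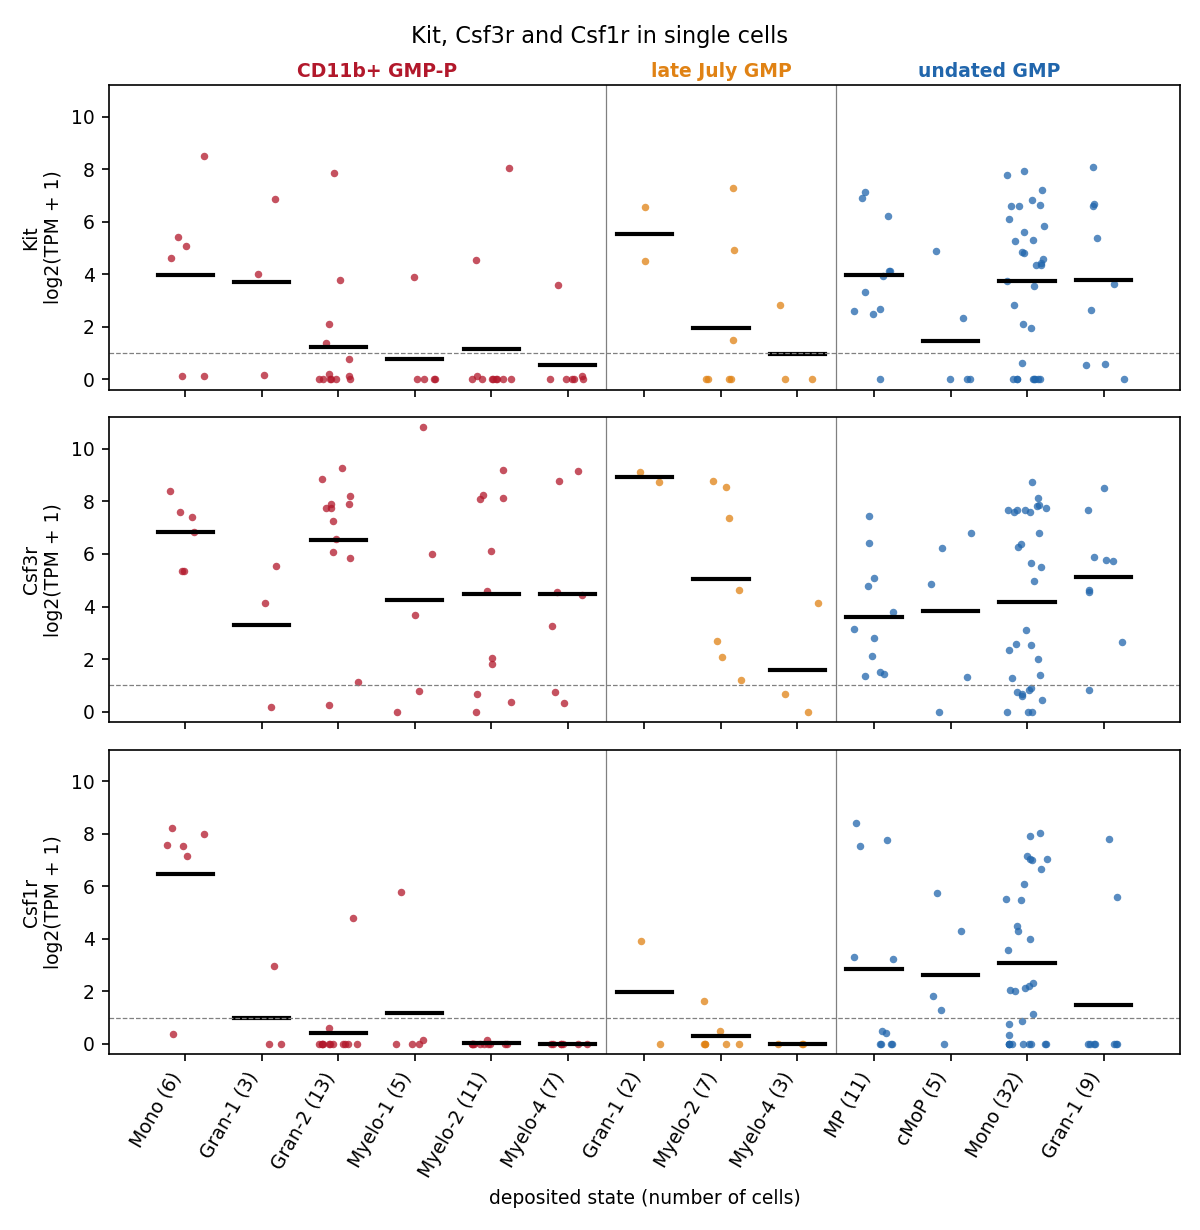
Each point is 1 cell, placed by run and deposited state (number of cells in brackets), with log2(TPM + 1) on the vertical axes. Black bars are means and the dashed line is the detection threshold of 1 TPM. In CD11b+ GMP-P, 5 of the 8 Csf1r points above the line sit in the Mono column, while Csf3r points above it occur in every column. States with a single cell and the 2 Multi-Lin cells are left out.

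Csf3r, the G-CSF receptor, was detected at similar frequency in all runs. It was found in 36 of 46 cells of CD11b+ GMP-P (78.3%, 63.6 to 89.1%), 11 of 13 of late July GMP (84.6%, 54.6 to 98.1%) and 49 of 62 of undated GMP (79.0%, 66.8 to 88.3%). The lowest, median and highest levels were 0, 59.6 and 1833 TPM in CD11b+ GMP-P and 0, 23.6 and 560 TPM in GMP. Populations overlapped, with the highest single cell in Myelo-1 of CD11b+ GMP-P. Over the cells where it was detected the median was 132 TPM in CD11b+ GMP-P and 50.9 TPM in GMP. By GMP run, that median was 105 TPM in late July GMP and 49.7 TPM in undated GMP. Between CD11b+ GMP-P and undated GMP, at the threshold of 1 TPM, the Csf3r shares were thus close. The levels in Csf3r-positive cells of these 2 groups lay further apart, the other way round from Kit.

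Csf3r was present in granulocytic and monocytic states alike. All 11 MP cells of undated GMP held it, at a low median of 7.73 TPM (range 1.53 to 172), a mean level of 3.62 ± 2.08. In the same run the mean level was 5.13 ± 2.36 in Gran-1 (8 of 9 cells), 4.17 ± 3.18 in Mono (23 of 32) and 3.84 ± 3.02 in cMoP (4 of 5). In CD11b+ GMP-P the order of means began with Mono at 6.83 ± 1.25 (6 of 6 cells) and Gran-2 at 6.52 ± 2.77 (12 of 13). It went on with Myelo-2 at 4.48 ± 3.61 (8 of 11), Myelo-4 at 4.47 ± 3.50 (5 of 7), Myelo-1 at 4.26 ± 4.38 (3 of 5) and Gran-1 at 3.28 ± 2.79 (2 of 3). The SDs exceed each step in both orders. The 2 Gran-1 cells of late July GMP held 560 and 421 TPM, above all 3 Gran-1 cells of CD11b+ GMP-P at 45.8, 16.4 and 0.12 TPM.

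Csf1r, the M-CSF receptor, had its high values in CD11b+ GMP-P in Mono cells. The 6 Mono cells held 296, 254, 191, 184, 143 and 0.30 TPM. Of the 40 cells in Gran and Myelo states only 3 reached the threshold, at 54.2 TPM in Myelo-1, 26.9 TPM in Gran-2 and 6.87 TPM in Gran-1. Csf1r was detected in 0 of 11 Myelo-2 cells and 0 of 7 Myelo-4 cells, counts that allow shares of up to 27.3% and 42.9%. The mean level was 6.48 ± 3.01 in Mono cells and 1.18 ± 2.57 in Myelo-1, the next state, a step larger than either SD. Csf1r is also a common marker of monocytes, and its use in naming the states was not given in the sources used here.

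In undated GMP Csf1r was not confined to monocytic names. It was detected in 20 of 32 Mono cells (62.5%, 43.7 to 78.9%), 5 of 11 MP cells (45.5%, 16.7 to 76.6%), 4 of 5 cMoP cells and 2 of 9 Gran-1 cells (22.2%, 2.8 to 60%). Mean levels were 3.06 ± 2.90, 2.83 ± 3.48, 2.63 ± 2.34 and 1.49 ± 3 in that order. Each lies within 1 SD of its neighbours. The cMoP cells held 53, 18.6, 2.54, 1.42 and 0 TPM, lower than the detected Mono cells of CD11b+ GMP-P. The 2 Gran-1 cells with Csf1r held 220 and 47.2 TPM, and the highest value of all cells, 338 TPM, was in an MP cell. By population, Csf1r was detected in 8 of 46 cells of CD11b+ GMP-P (17.4%, 7.8 to 31.4%), 3 of 13 of late July GMP (23.1%, 5.0 to 53.8%) and 31 of 62 of undated GMP (50%, 37 to 63%).

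Flt3 was close to absent. It was detected in 0 of 46 cells of CD11b+ GMP-P (up to 6.52%), 0 of 13 of late July GMP (up to 23.1%) and 1 of 62 of undated GMP (1.61%, 0.04 to 8.66%), an MP cell at 3.25 TPM. Its level passed the 10% filter in none of the comparisons below.

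Kit, Csf3r and Csf1r were then read together in each cell, to see how often the progenitor receptor and the lineage receptors were detected side by side. Cells with Kit alone were rare, 3 of 46 in CD11b+ GMP-P and 5 of 75 in GMP. Kit together with Csf3r or Csf1r was found in 11 of 46 cells of CD11b+ GMP-P (23.9%, 12.6 to 38.8%) and 46 of 75 of GMP (61.3%, 49.4 to 72.4%). Csf3r or Csf1r without Kit was found in 26 of 46 cells of CD11b+ GMP-P (56.5%, 41.1 to 71.1%) and 18 of 75 of GMP (24%, 14.9 to 35.3%). In the 24 Myelo cells of CD11b+ GMP-P, Csf3r alone made up 15 cells, and 1 cell held Kit beside it. Most Kit-positive GMP cells thus held a lineage receptor transcript too, as did most GMP cells of any kind, with Csf3r in 60 of 75. Most CD11b+ GMP-P cells held such a transcript without Kit.

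Cells that held both Csf3r and Csf1r numbered 7 of 46 in CD11b+ GMP-P (15.2%, 6.3 to 28.9%) and 30 of 75 of GMP (40%, 28.9 to 52%). Taken singly, Csf3r was in 78.3% and Csf1r in 17.4% of CD11b+ GMP-P cells, and in 80% and 45.3% of GMP cells. With Csf3r in most cells, these counts do not show that the 2 genes go together. Their levels had a Pearson r of 0.11 over CD11b+ GMP-P, 0.30 over late July GMP and 0.05 over undated GMP cells. In undated GMP, 16 of 32 Mono cells, 5 of 11 MP cells, 4 of 5 cMoP cells and 2 of 9 Gran-1 cells held both. All 5 MP cells and all 4 cMoP cells with Csf1r held Csf3r as well. Csf3r was in 11 of 11 MP and 4 of 5 cMoP cells, so the MP count was fixed by that share. In CD11b+ GMP-P, 5 of 6 Mono cells held both, 3 of them with Kit, against 2 of 40 cells in Gran and Myelo states. These Mono cells also carried neutrophil lineage markers: the summed level of 15 such genes was 42728 to 94706 TPM, against 15257 to 82366 TPM in Mono cells of undated GMP. Each of the 15 genes reached 1 TPM in at least 1 of the 6 cells. In the 32 Mono cells of undated GMP 13 of the 15 did so, with Ltf and Ngp at 0. The 6 Mono cells of CD11b+ GMP-P held 3512 to 4738 detected genes (median 4434). That is inside the range of undated GMP Mono cells (1951 to 6153). In their own run, the 40 Gran and Myelo cells held fewer, 967 to 4509 (median 2551.5). Whether any capture site held more than 1 cell was not tested.

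**Figure D3:**
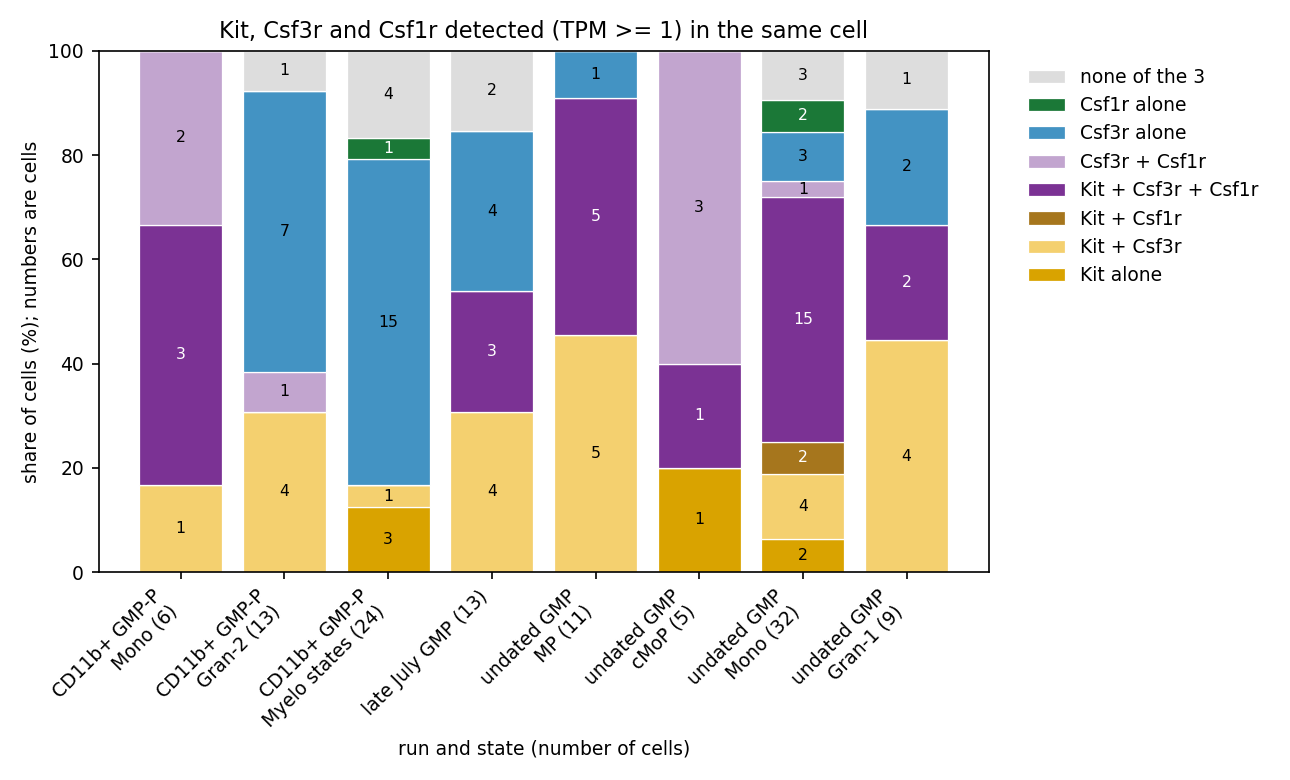
Stacked bars give the share of cells (vertical axis, %) with each combination of Kit, Csf3r and Csf1r at 1 TPM or more, by run and state, with cell numbers inside the bars. Csf3r alone fills 15 of the 24 Myelo cells of CD11b+ GMP-P, while all 3 receptors together take 15 of the 32 Mono cells of undated GMP.

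Of the GM-CSF and IL-3 receptor chains, the common beta chain Csf2rb was the most widely detected member. It was found in 38 of 46 cells of CD11b+ GMP-P (82.6%, 68.6 to 92.2%), 11 of 13 of late July GMP and 60 of 62 of undated GMP (96.8%, 88.8 to 99.6%). The lowest, median and highest levels were 0, 106 and 1431 TPM in CD11b+ GMP-P and 0.25, 45 and 463 TPM in GMP. Means were nearly equal, 5.41 ± 3.38 in CD11b+ GMP-P and 5.43 ± 2.14 in GMP, while CD11b+ GMP-P had both the higher median and the larger number of cells under 1 TPM (8 of 46, against 4 of 75 in GMP). Of those 8 cells, 4 were Myelo-4. All 13 Gran-2 cells held Csf2rb, at a median of 196 TPM, whereas the 7 Myelo-4 cells held 241, 1.30, 1.07, 0.09, 0.09, 0 and 0 TPM. In late July GMP the 3 Myelo-4 cells held 403, 7.63 and 0.32 TPM.

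Csf2ra, the GM-CSF alpha chain, was detected in 32 of 46 cells of CD11b+ GMP-P (69.6%, 54.2 to 82.3%), 6 of 13 of late July GMP (46.2%, 19.2 to 74.9%) and 34 of 62 of undated GMP (54.8%, 41.7 to 67.5%). The lowest, median and highest levels were 0, 6.66 and 479 TPM in CD11b+ GMP-P and 0, 1.47 and 320 TPM in GMP. Populations overlapped over nearly the whole range. In CD11b+ GMP-P the chain was in all 6 Mono cells and all 5 Myelo-1 cells, where it stood at 158, 53.9, 17.2, 13 and 1.40 TPM. It was in 10 of 13 Gran-2, 4 of 7 Myelo-4 and 5 of 11 Myelo-2 cells. In undated GMP it was in 6 of 9 Gran-1, 19 of 32 Mono, 5 of 11 MP and 2 of 5 cMoP cells.

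An alpha chain was almost never seen without a beta chain. Csf2ra occurred with Csf2rb or Csf2rb2 in 30 of 46 cells of CD11b+ GMP-P (65.2%, 49.8 to 78.6%) and 39 of 75 of GMP (52%, 40.2 to 63.7%). It occurred without either in 2 cells of CD11b+ GMP-P, both Myelo-4, and in 1 GMP cell, named MDP. Conversely, 11 of 46 cells of CD11b+ GMP-P and 26 of 75 of GMP held a beta chain with neither Csf2ra nor Il3ra. Csf2rb by itself was detected in most cells of either population.

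Il3ra, the IL-3 alpha chain, was detected in 4 of 46 cells of CD11b+ GMP-P (8.70%, 2.42 to 20.8%) and 18 of 75 of GMP (24%, 14.9 to 35.3%). In CD11b+ GMP-P its 4 cells were 2 Mono cells at 18.4 and 2.44 TPM and 2 Gran-2 cells at 41.1 and 40.8 TPM. None of the 24 Myelo cells of that run held it, which allows a share of up to 12.5%. In late July GMP, by contrast, 2 of 7 Myelo-2 cells held 3.27 and 1.40 TPM and 1 of 3 Myelo-4 cells held 439 TPM, the highest Il3ra value among all cells. All 22 cells with Il3ra also held a beta chain, where Csf2rb alone was in 82.6% of all CD11b+ GMP-P and 94.7% of all GMP cells.

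Csf2rb2, the IL-3 beta chain of the mouse, was detected in 10 of 46 cells of CD11b+ GMP-P (21.7%, 10.9 to 36.4%), 2 of 13 of late July GMP and 14 of 62 of undated GMP (22.6%, 12.9 to 35%). By summed TPM it made up 4.55% of both beta chains in CD11b+ GMP-P and 4.99% in GMP. It was in 0 of 11 MP cells (up to 27.3%), against 3 of 9 Gran-1 and 8 of 32 Mono cells of that run. In Myelo-2 of CD11b+ GMP-P its share of the summed beta chains was 13.7%, and 4 of 11 cells held it, 1 of them at 260.1 TPM. The genes are near copies. Of the 50-base windows of the longest Csf2rb transcript, 18.4% occur in a Csf2rb2 transcript, and 3.47% of its 150-base windows do, so low values of either gene beside a high value of the other are uncertain.

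Il6ra, the IL-6 alpha chain, was detected in 7 of 46 cells of CD11b+ GMP-P (15.2%, 6.3 to 28.9%) and 13 of 75 of GMP (17.3%, 9.6 to 27.8%). Among the CD11b+ GMP-P cells were 3 of 13 Gran-2 and 2 of 6 Mono cells, with 0 of 11 in Myelo-2. In undated GMP, 7 of 32 Mono, 2 of 5 cMoP, 1 of 9 Gran-1 and 0 of 11 MP cells held it. Its partner Il6st was detected in 2 of 46 cells of CD11b+ GMP-P, 0 of 13 of late July GMP and 26 of 62 of undated GMP. Il6ra and Il6st met in 1 of 46 cells of CD11b+ GMP-P (2.17%, 0.06 to 11.5%) and 5 of 75 of GMP (6.67%, 2.20 to 14.9%). The 2 chains of the IL-6 receptor were seldom seen in the same cell. Singly, Il6ra was in 16.1% and Il6st in 41.9% of undated GMP cells. With shares of this size, the counts do not show that the chains are kept apart.

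**Figure D4:**
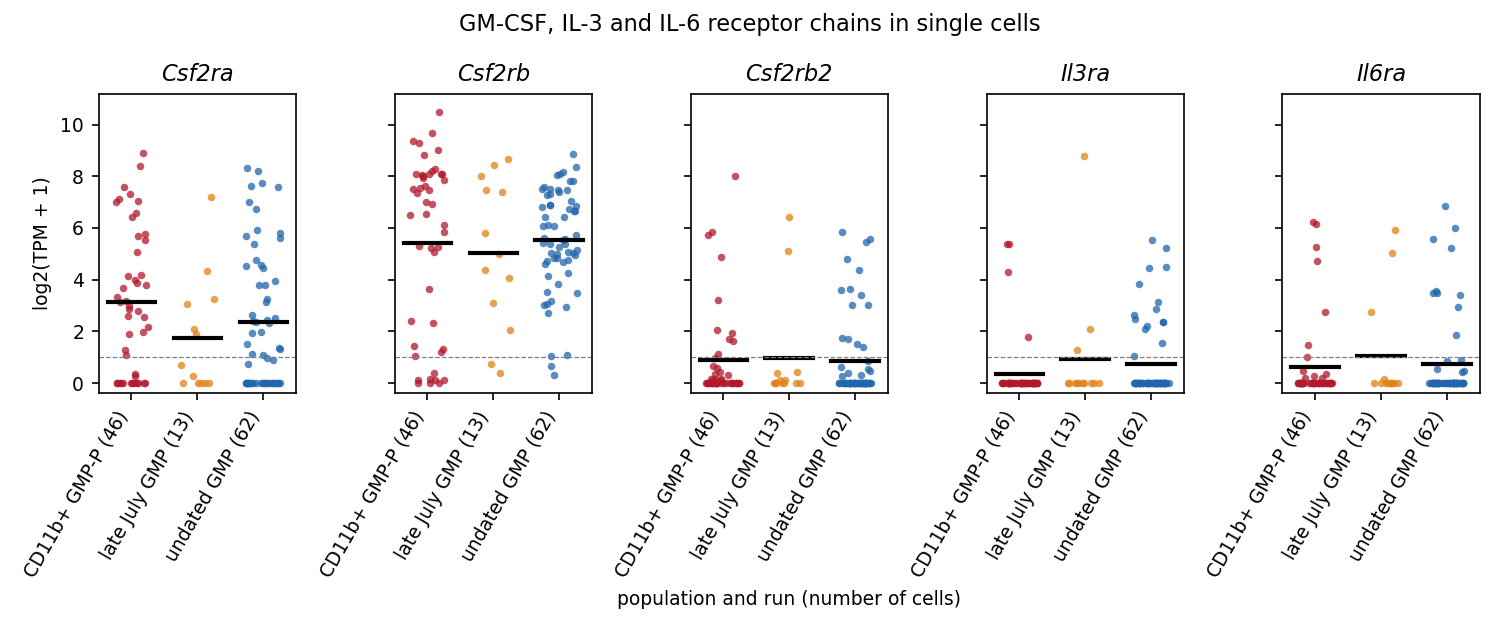
Each point is 1 cell, by population and run (number of cells in brackets), with log2(TPM + 1) on the vertical axis for 5 receptor chains. Black bars are means and the dashed line is 1 TPM. Csf2rb fills the upper range in each run, with a second group of CD11b+ GMP-P cells near 0, and Il3ra and Il6ra lie at 0 in most cells.

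Between the populations, 8 of the 9 members passed the 10% filter, and none was higher and 2 were lower in CD11b+ GMP-P than in GMP by the fold of 1. Over 9150 genes the shares were 2.3% higher and 28.8% lower (31.1% in either direction), so 2 of 8 members lower is near the background. The median difference was -0.09 over the members and -0.56 over all those genes. The 2 members were Kit at -1.91 and Csf1r at -1.10 (1.16 ± 2.59 in CD11b+ GMP-P and 2.26 ± 2.89 in GMP). Relative to the median of all genes these are -1.35 and -0.55. Csf3r (5.17 ± 3.27 in CD11b+ GMP-P and 4.27 ± 2.98 in GMP) and Csf2ra (3.14 ± 2.75 in CD11b+ GMP-P and 2.24 ± 2.58 in GMP) each differed by 0.90, which is 1.46 above that median and thus further from it than Kit. The SDs over cells exceed every one of these differences.

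The comparison with late July GMP alone, whose run names read as the same date as that of CD11b+ GMP-P, gave other values. Its 13 cells were all in Gran or Myelo states. Kit at -1.25 and Csf2ra at 1.38 were past the fold, 1 member lower and 1 higher, where 5.95% of 8037 genes were lower and 12.7% higher (18.6% in either direction). Csf1r differed by 0.08 and Csf3r by 0.20. With CD11b+ GMP-P kept to its 40 cells in Gran and Myelo states, the mean Csf1r level was 0.36 ± 1.25, against 1.07 ± 2.35 in late July GMP. Kit was then at 1.19 ± 2.28 against 2.80 ± 3.25, and Csf3r at 4.93 ± 3.41 against 4.98 ± 3.41. Against undated GMP, Kit (-2.05) and Csf1r (-1.35) were lower and Csf3r (1.05) was higher, where 36.3% of 9248 genes were lower and 2.74% higher (39.1% either way). These comparisons use the same CD11b+ GMP-P cells. Before the shift of all genes is taken off, the lower Kit level was the one difference past the fold against both GMP runs. The median of all genes was 0.20 against late July GMP and -0.68 against undated GMP. Relative to these medians, Kit lay at -1.45 and -1.37 and Csf2ra at 1.18 and 1.48.

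**Figure D5:**
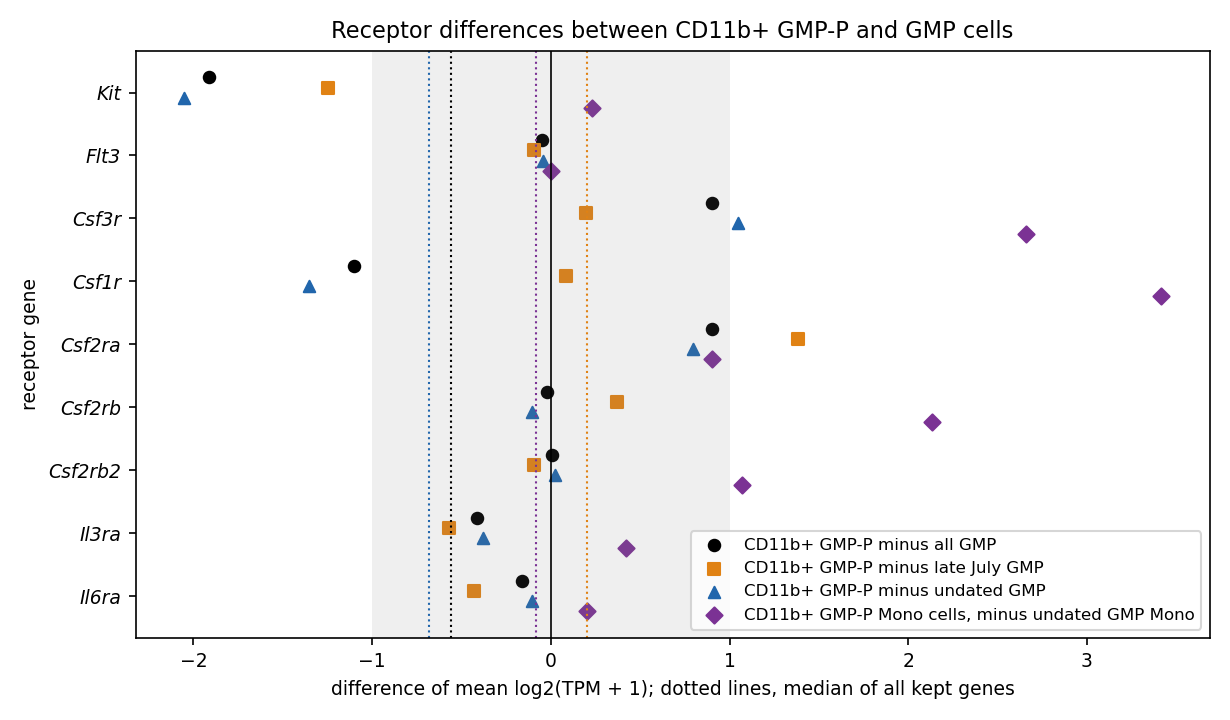
Points are differences of mean log2(TPM + 1) for each receptor (rows), CD11b+ GMP-P minus all GMP, late July GMP or undated GMP, and within Mono cells. Dotted lines are the medians of all genes that passed the filter and the grey band spans differences under 1. Kit lies left of the band in the 3 population comparisons and at 0.23 within Mono, where Csf1r lies at 3.41 and Csf3r at 2.66.

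Within the Mono state, which both populations contain, 4 of 8 members were past the fold and all 4 were higher in CD11b+ GMP-P (6 cells) than in undated GMP (32 cells). Over 9655 genes 17.5% were higher and 17.8% lower (35.3% either way), with a median difference of -0.08. The 4 were Csf1r at 3.41, Csf3r at 2.66, Csf2rb at 2.13 and Csf2rb2 at 1.07. For Csf2rb2 the means were 2.03 ± 2.92 and 0.96 ± 1.69, so both SDs exceed the difference. It was detected in 33.3% and 25% of these cells. Mean levels in Mono cells of CD11b+ GMP-P were 6.48 ± 3.01 for Csf1r, 6.83 ± 1.25 for Csf3r and 7.53 ± 0.58 for Csf2rb, against 3.06 ± 2.90, 4.17 ± 3.18 and 5.40 ± 2.01 in Mono cells of undated GMP. Every Mono cell of CD11b+ GMP-P held at least 39.9 TPM of Csf3r and 89.9 TPM of Csf2rb, while Mono cells of undated GMP began at 0 and 0.25 TPM. Kit differed by 0.23 in this state. Within Myelo-2, 1 of 8 members was past the fold in CD11b+ GMP-P (11 cells) relative to late July GMP (7 cells), Il6ra at -1.11, where 23.1% of 7607 genes were lower and 11.4% higher (34.5% either way). Kit differed there by -0.80.

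Among states of undated GMP, Gran-1 against Mono showed 1 of 8 members past the fold, Csf1r at -1.58, with 16.5% of 10243 genes higher and 7.62% lower (24.2% either way). Csf3r differed by 0.96, just under it, but by -0.01 as a log2 ratio of mean TPM. Kit differed by 0.04. Gran-1 against MP showed Csf3r (1.52) and Csf2rb2 (1.37) higher and Csf1r (-1.35) lower, where 21.4% of 10121 genes were higher and 9% lower (30.4% either way). Mono against MP showed Csf2ra higher at 1.02, where 13.4% of 9345 genes were higher and 8.87% lower (22.3% either way). cMoP against MP showed Il6ra (1.60) and Csf2ra (1.43) higher and Kit (-2.51) lower, where 20.8% of 9435 genes were higher and 20.5% lower (41.3% either way). The cMoP value rests on 5 cells, and the shares of members past the fold lie near or below the background in these comparisons.

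Among states of CD11b+ GMP-P, Gran-2 against Mono showed 3 of 8 members lower, Csf1r at -6.06, Kit at -2.73 and Csf2rb2 at -1.74. Over 9211 genes 31.3% were lower and 11.8% higher (43.1% either way). Csf3r differed by -0.31 and Csf2rb by -0.69, both smaller than the SDs of Gran-2 cells (2.77 and 2.31). Myelo-2 against Gran-2 showed Csf2ra (-2.08), Csf3r (-2.04) and Csf2rb (-1.80) lower and Csf2rb2 (1.15) higher, where 43.4% of 7887 genes were lower and 5.29% higher (48.7% either way). Myelo-4 against Gran-2 showed Csf2rb (-5.35), Csf3r (-2.05) and Csf2ra (-1.12) lower, where 52.7% of 8212 genes were lower and 5.71% higher (58.4% either way). Relative to the median of all genes, -1.09, the Myelo-4 differences were -4.27 for Csf2rb, -0.97 for Csf3r and -0.03 for Csf2ra. As log2 ratios of mean TPM, the Csf3r differences from Gran-2 were -0.53 in Myelo-2 and -0.42 in Myelo-4 and the Csf2rb difference in Myelo-2 was -0.84, all under the fold, while Csf2rb in Myelo-4 stayed at -2.99.

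Detected genes moved with these states. Their median was 1642 in Myelo-4, 2261 in Myelo-2, 3760 in Gran-2 and 4434 in Mono cells of CD11b+ GMP-P. The 20 most abundant genes took 65.5%, 56.7%, 29.2% and 17.4% of the TPM of a cell at the median in those states. With these 20 genes left out and each cell rescaled, Csf2rb in Myelo-4 against Gran-2 differed by -5.32. Across the 46 CD11b+ GMP-P cells the levels of Csf2rb and Csf1r had a Pearson r of 0.59 and 0.50 with the number of detected genes. Both are descriptions over cells that share a run. The part of the number of detected genes in the lower receptor levels of Myelo cells was not tested.

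Genes that act with the receptors were read from 5 lists. None of the 9 ligand genes passed the filter between the populations, and Csf2, Csf3, Il3, Il5, Il34 and Kitl reached 1 TPM in no cell. Flt3l was detected in 2 of 62 cells of undated GMP, where its mean level differed by 1.5 between Gran-1 and Mono cells. Of 28 partner and related receptor chains, 17 passed the filter in CD11b+ GMP-P against GMP, with 0 higher and 3 lower. Of 11 JAK and STAT genes, the kinases and transcription factors that carry the signal, all 11 passed and none was past the fold. Among 13 of 21 inhibitors that passed, 0 were higher and 1 was lower, and among 17 of 18 adaptor and RAS-PI3K genes 1 was higher and 1 lower. Over all genes 2.3% were higher and 28.8% lower, so none of these lists held a larger share of lower genes than the background. The medians of these 4 lists were -0.47, -0.07, -0.45 and -0.29, against -0.56 over all genes.

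In Gran-1 against Mono of undated GMP, the genes of these lists with the widest differences were read by name. The common gamma chain Il2rg (2.11) and the TNF receptor Tnfrsf1a (1.27) were higher, and Il6st (-1.56) and the IL-11 receptor Il11ra1 (-1.20) were lower. Of the inhibitors, the phosphatase Inpp5d (1.25) and Spry2 (1.01), which dampens RAS signalling, were higher, while Ptpn6 (-0.85) and Socs6 (-0.84) stayed under the fold. Of the adaptors, Crkl (1.16) and Shc1 (1.12) were higher, and Vav1 (-2.01) and Hras (-1.17) lower. Stat5b (0.59), Jak1 (0.55), Jak2 (0.50) and Stat3 (0.44) differed by less than the fold. In CD11b+ GMP-P against GMP, Spry2 (-1.40), Il6st (-1.33) and Vav1 (-1.06) were past it.

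Genes whose level followed a receptor most closely were sought among those at 1 TPM or more in 50% or more of a run's cells. Over the 62 undated GMP cells the closest were Tmem55a for Kit (Pearson r 0.56), Samm50 for Csf3r (0.49) and Reep5 for Csf1r (0.48), out of 3844 genes. Over the 46 CD11b+ GMP-P cells they were Acin1 for Kit (0.63), Ppil4 for Csf3r (0.59) and Rsl24d1 for Csf1r (0.58), out of 1924 or 1925 genes. No gene stood among the first 4 for the same receptor in both runs. Next to Acin1, Kit was followed in CD11b+ GMP-P by the progenitor surface gene Cd93 (0.57), the factor gene Lmo2 (0.57) and Mpv17 (0.54). In undated GMP the genes next to Tmem55a were 2610507B11Rik (0.52), Srprb (0.50) and Snrnp200 (0.50). These are weak correlations over cells of a single run, and the largest among all those computed. The cells of a run differed in detected genes, 1951 to 6153 in undated GMP and 967 to 4738 in CD11b+ GMP-P. With that number, Kit, Csf3r and Csf1r had a Pearson r of 0.35, 0.29 and 0.26 in undated GMP. In CD11b+ GMP-P these were 0.32, 0.27 and 0.50. The part of detected genes in the correlations was not tested.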

How the data were processed

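Single bone marrow cells were captured on the Fluidigm C1, and SMARTer cDNA and Nextera XT libraries were made from each, per the labels' protocols. The submitters' processing notes name RSEM, Bowtie2 and the build mm9, without versions. The deposited table of the authors holds log2 values of 23946 genes in 121 cells. Undoing that log2 scale (2 to the power of the value, minus 1) gave nearly the same sum in every cell, as TPM do. TPM keeps no read number, so sequencing depth is unknown, and 81.7% of values were 0. A second table of the authors gives each cell a state name; how the names were made, and how doublets were treated, was not given in the sources used here. All deposited cells were used, with no other filter on cells.

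From these values came shares of cells at 1 TPM or more with exact 95% intervals (a share of 0 carries instead the limit of 3 cells over the number of cells), means of log2(TPM + 1) with a pseudocount of 1, and differences of those means. The scale understates differences of low genes. With 1 sample per population no test, p-value or standard error was computed, and a difference of 1 or more served as the fold, over genes at 1 TPM or more in 10% or more of the cells on one side; states were compared within a run where they held at least 5 cells. The script was tested on simulated data. Python 3.11.15, pandas 2.3.3, numpy 2.4.6 and scipy 1.17.1 were used. Members and gene lists were chosen with earlier results of these data known. Beside the 9 members, the text names up to 4 genes of each pathway list with the largest difference of Gran-1 against Mono in undated GMP, the genes most correlated with Kit, Csf3r and Csf1r, and Gfi1, Itgam, Cd34 and Fcgr3 as checks. Alternatives were other detection thresholds, a pseudocount of 10, the log2 ratio of mean TPM, rescaling without the 20 most abundant genes, cells with at least 2500 detected genes, single GMP runs as the reference and single states. The promoter windows are from a newer build than mm9 and were used for sequence alone.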

Additional observations from a re-analysis of the deposited data

How the results depend on the processing

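No result here has replicates or a test, so only values and sides of the fold of 1 can be compared. The shares depended on the threshold. At any value above 0, 47.8% of CD11b+ GMP-P cells held Kit and 47.8% held it beside Csf3r or Csf1r, and Csf3r in 95.7% of CD11b+ GMP-P and 92% of GMP cells. At 10 TPM, 52% of GMP cells held Kit, 54.7% Csf3r and 30.7% Csf1r, 42.7% held Kit with Csf3r or Csf1r, 17.3% Csf3r with Csf1r and 6.67% Il3ra with a beta chain, and 32.6% of CD11b+ GMP-P against 25.3% of GMP cells held Csf2ra with a beta chain. For CD11b+ GMP-P minus GMP, the Kit difference was -0.86 with a pseudocount of 10, -0.80 within Myelo-2 and 0.23, turned round, within Mono. The Csf1r difference was -0.52 as a log2 ratio of mean TPM, -0.44 with a pseudocount of 10, -0.60 in cells with at least 2500 detected genes and -0.29 within Myelo-2. It was 0.084 against late July GMP and turned round to 3.41 within Mono. Late July GMP held only Gran and Myelo states. With CD11b+ GMP-P kept to those states too, the mean Csf1r level was lower there, 0.36 ± 1.25 against 1.07 ± 2.35. The Csf3r difference passed the fold without the 20 most abundant genes (1.20), in cells with at least 2500 detected genes (1.09), against undated GMP (1.05) and within Mono (2.66). Csf2rb, at -0.02, became 1.03 as a log2 ratio of mean TPM, 1.101 in cells with at least 2500 detected genes and 2.13 within Mono. For Gran-1 minus Mono in undated GMP, Csf3r was 1.02 without the 20 genes and -0.01 as a log2 ratio of mean TPM, and Csf1r -0.51 as a log2 ratio and -0.60 with a pseudocount of 10. As a log2 ratio of mean TPM, Csf2ra in Myelo-4 minus Gran-2 turned round to 0.35, and Csf3r in Myelo-4 minus Gran-2 (-0.42) and Csf3r (-0.53) and Csf2rb (-0.84) in Myelo-2 minus Gran-2 came under the fold. Csf2ra in Myelo-4 minus Gran-2 was also under it without the 20 genes (-0.74). A pseudocount of 10 brought 10 differences under the fold and the log2 ratio 5, while the log2 ratio put 19 others past it. The share of genes past the fold between populations was 11.9% with no filter and 8.53% at a difference of 2. In each case the cause was not tested. Leaving out the 20 genes moved the median of all genes by at most 0.07 in size between populations and by -0.11 within Myelo-2. No Myelo-4 cell of CD11b+ GMP-P had 2500 detected genes, so that alternative was not run there. The comparisons within Mono and within Myelo-2 were chosen after seeing the data. No paired analysis was possible because the cell numbers name cells only and no result comes from a test.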
